A study of Homo sapiens with 10 samples.

Results

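The 10 genes described here are the NF-κB subunits NFKB1, NFKB2, RELA and RELB, the inhibitors NFKBIA and NFKBIZ, the feedback genes TNFAIP3, TNIP1 and BIRC3, and the microRNA gene MIR146A. Their members are all regions that the deposited annotation assigns to one of these symbols, 67 of 67387 annotated regions, with 31 within 1 kb of a transcription start (promoter), 4 at 1 to 3 kb (flank) and 32 farther away (distal). BIRC3 and MIR146A had distal regions only, and RELA and RELB had promoter regions only. MIR146A was selected on its measured counts, which were known to be low in drug-treated cells, so its values are given as a description with no test. The tests below cover the 63 regions of the other 9 genes. Those genes and the pathway lists used below were also chosen with earlier results of these data known. Their p-values therefore do not come from a choice independent of the data.

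NF-κB is a family of dimeric transcription factors that are held in the cytoplasm by inhibitory IκB proteins. Signals from receptors such as the TNF receptor activate the IκB kinase complex, IκBα is degraded and the dimers enter the nucleus. Many of their target genes, among them NFKBIA, TNFAIP3, TNIP1, BIRC3 and MIR146A, encode proteins or a microRNA that act back on the pathway, which makes this a feedback circuit.

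H3K27ac, the acetylation of lysine 27 on histone H3 that marks active promoters and enhancers, was profiled by ChIP-seq in H1975, a human lung adenocarcinoma cell line with mutant EGFR. DMSO cells were kept free of drug for 21 days and then in DMSO for 3 days, osimertinib drug-tolerant persister (DTP) cells were exposed to 500 nM of the EGFR inhibitor osimertinib for 24 days, and the third group (osimertinib DTP + AZD5153) had 21 days of osimertinib at 500 nM and then 3 days of the BET bromodomain inhibitor AZD5153 at 150 nM. Each group had 3 biological replicates of this 1 line, and 1 pooled input served as background. For the last 3 days of the third group the treatment text names AZD5153 only, while the sample titles call the group a combination, so whether osimertinib was kept on is not settled by the labels. In bulk chromatin, fewer cells carrying the mark and less mark per cell cannot be told apart.

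The 9 libraries held 6263443 to 10463351 counts over all 169637 regions, and the input held 1870885. Osimertinib DTP + AZD5153 replicate 3 stood apart, with Spearman correlations of 0.354 and 0.430 with the other 2 libraries of its group against 0.818 to 0.898 for every other pair within a group, the lowest total, and 66.7% of its annotated counts in promoters. Osimertinib DTP replicate 2 had 59.8% in promoters and the other 7 libraries had 40.3% to 45.9%. Promoter regions were found for 6 of 6 epithelial and 3 of 4 lung epithelial marker genes, 1 of 4 immune, 1 of 3 endothelial and 3 of 3 fibroblast marker genes; the summed CPM (counts scaled to the library total) of the fibroblast markers was 8.26 to 20.3 in DMSO, 31.8 to 66.4 in osimertinib DTP cells and 29.8 to 96.6 with AZD5153. The part of the fibroblast markers in the results was not tested.

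The sequence of the MIR146A product is shown first because its seed (bases 2 to 8, in capitals) defines which messages it can target, and MIR146B, a gene on another chromosome, gives a microRNA with the same seed. Of 2370 mature human miRNAs in RefSeq, 3 carried this seed, and miR-146a-5p (chr5:160485372-160485393, plus strand, GRCh38.p14) and miR-146b-5p (chr10:102436520-102436542, plus strand) first differ at position 18.
hsa-miR-146a-5p: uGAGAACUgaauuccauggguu
hsa-miR-146b-5p: uGAGAACUgaauuccauaggcug

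The promoters of the inhibitor and subunit genes are shown because NF-κB acts back on them, and capitals mark matches to the motif GGGNNTTTCC, searched on both strands of the 250 bases upstream of each RefSeq start. The motif letters were chosen after the member promoters had been read. Of 35116 human promoters, 608 (1.73%) held a match. Of the 8 members with a promoter sequence, 7 held at least 1 match at any of their starts, and RELA held none. Each of NFKB1, NFKB2, NFKBIZ and TNIP1 also had a start without a match. The share per promoter and the count per gene are unlike measures. Because the letters were chosen from these promoters, the 2 values are not a comparison. A match is a description of letters and not a binding site. The NFKBIA piece (chr14:35404750-35404999, minus strand) held 1 match 81 bases upstream on the opposite strand. The NFKBIZ piece (chr3:101827740-101827989, plus strand) held 1 match 223 bases upstream, and the NFKB1 piece (chr4:102501109-102501358, plus strand) held 1 match 49 bases upstream. The pieces of the other starts of NFKBIZ (chr3:101849264-101849513) and NFKB1 (chr4:102501684-102501933) held no match. Those pieces, not printed, lie at or beside the tallest promoter regions of the 2 genes given below. Of the TNFAIP3 promoter, the stretch chr6:137867188-137867217 (plus strand) held 2 matches, 67 and 55 bases upstream, both on the opposite strand.
NFKBIA: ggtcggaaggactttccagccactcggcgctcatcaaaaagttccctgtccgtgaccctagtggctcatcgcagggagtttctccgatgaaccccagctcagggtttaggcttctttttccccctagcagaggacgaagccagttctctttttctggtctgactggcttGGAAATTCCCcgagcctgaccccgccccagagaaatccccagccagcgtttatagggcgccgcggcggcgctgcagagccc
NFKBIZ: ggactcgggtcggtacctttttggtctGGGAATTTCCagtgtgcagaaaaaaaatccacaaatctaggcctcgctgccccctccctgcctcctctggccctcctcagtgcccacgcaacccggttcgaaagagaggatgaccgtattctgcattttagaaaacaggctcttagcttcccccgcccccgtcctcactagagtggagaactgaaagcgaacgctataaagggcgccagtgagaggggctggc
NFKB1: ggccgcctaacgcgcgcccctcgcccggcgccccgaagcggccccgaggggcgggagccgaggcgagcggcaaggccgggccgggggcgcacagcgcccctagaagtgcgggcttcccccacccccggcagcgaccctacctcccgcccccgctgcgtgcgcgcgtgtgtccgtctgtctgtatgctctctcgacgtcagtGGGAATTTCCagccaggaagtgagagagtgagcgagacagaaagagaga
TNFAIP3: ctttGGAAAGTCCCgtGGAAATCCCCgggc

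In osimertinib DTP against DMSO, distal H3K27ac of NFKBIZ rose and that of TNFAIP3 fell, while no promoter region of any of the 9 genes passed the test. Of the 63 regions, 2 rose and 2 fell at an adjusted p under 0.05 (edgeR's quasi-likelihood test over all 157919 regions, Benjamini-Hochberg adjustment). Over all regions tested 5.58% were higher and 5.13% lower, so the members were not called at a share above that of regions in general. By class, 2.78% of all promoter regions were higher and 1.85% lower, beside 0 of the 31 member promoters, and 9.79% of all distal regions were higher and 10.8% lower, beside 2 and 2 of the 28 member distal regions. At an unadjusted edgeR p under 0.05 there were 17 of the 63, beside 40906 of all 157919 regions. DESeq2 called 8, beside 17.7% of all regions. Without osimertinib DTP + AZD5153 replicate 3, which is in neither of these groups but shares their fit, 13 rose and 7 fell, in a fit that called 26.8% of all regions, and without DMSO replicate 2 none was called. Leaving out DMSO replicate 3 or osimertinib DTP replicate 2 or 3 left 2 calls each.

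Against DMSO, osimertinib DTP + AZD5153 had 5 of the 63 regions higher and 5 lower, beside 9.05% higher and 9.01% lower over all regions. The higher regions belonged to NFKB2 (1 distal), NFKBIZ (3 distal) and TNIP1 (1 promoter), and the lower ones to TNFAIP3 (2 distal) and TNIP1 (2 distal and 1 flank). DESeq2 called 11 of the 63, beside 24.8% of all regions, and without osimertinib DTP + AZD5153 replicate 3 there were 6 higher and 8 lower, beside 35.7% of all regions. The count was 4 without DMSO replicate 2 or 3, and 6 without osimertinib DTP + AZD5153 replicate 1. Both comparisons share the DMSO libraries.

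The median log2 fold change of the 31 member promoters was 0.83 in osimertinib DTP against DMSO, beside 0.36 over all 24296 promoters tested, and that of the 28 distal regions was −0.16, beside −0.06 over all 36543 distal regions. With AZD5153 against DMSO the promoter median was 0.89 (25 above 0 and 6 below), beside 0.42 over all promoters, and without osimertinib DTP + AZD5153 replicate 3 it was 0.14 (18 above and 13 below). Promoter regions of 25 members lay above 0 and 6 below in osimertinib DTP against DMSO, none of them passing the test (DESeq2 0, and 4 at an unadjusted p under 0.05). The share of all promoters at that unadjusted p is not given here. Osimertinib DTP replicate 2 and osimertinib DTP + AZD5153 replicate 3, the libraries with the high promoter share, were the highest of their groups at the tallest promoter region of each of the 8 genes that have one. The part of osimertinib DTP replicate 2 in the median was not tested.

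**Figure D1:**
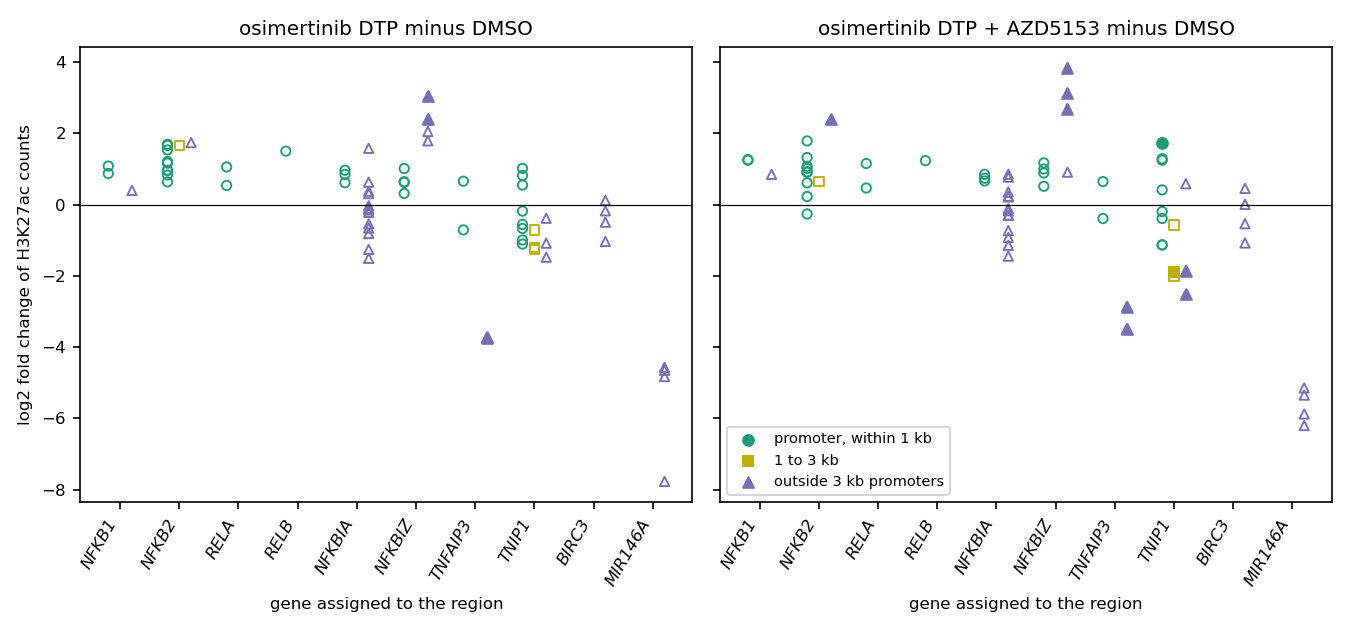
Log2 fold change of H3K27ac counts (vertical axis) of every member region by assigned gene, in osimertinib DTP minus DMSO (left) and osimertinib DTP + AZD5153 minus DMSO (right). Circles are promoter, squares flank and triangles distal regions, and filled symbols are regions with an edgeR adjusted p under 0.05 (4 on the left and 10 on the right); MIR146A was not tested and has no filled symbol.

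Among the subunit genes, no promoter of NFKB1, NFKB2, RELA or RELB was called in either comparison with DMSO. NFKB1 encodes p105, the precursor of p50, and its tallest promoter region (chr4:102501639-102502140) gave 18.2, 21.5 and 12.6 CPM in DMSO, 21.9, 60.3 and 13.7 in osimertinib DTP cells and 21.9, 24.1 and 78.3 with AZD5153. One library in each drug group was far above its partners, and the osimertinib DTP and DMSO groups overlapped, with a log2 fold change of 0.87 ± 0.63 (SE, n = 3 per group, edgeR adjusted p = 0.428). RELA, which encodes the p65 activator, had 15.5, 14.6 and 9.76 CPM in DMSO at chr11:65662902-65663403, 16.6, 55.8 and 10.6 in osimertinib DTP and 21.4, 15.8 and 51.6 with AZD5153. The same libraries were high, and the log2 fold change was 1.06 ± 0.64 (edgeR adjusted p = 0.329) in osimertinib DTP.

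RELB, the partner of p52 in the non-canonical pathway, had 1 promoter region (chr19:45001403-45001904) with 4.17, 4.44 and 2.41 CPM in DMSO and 6.31, 22 and 3.12 in osimertinib DTP. The groups overlapped, and the log2 fold change was 1.5 ± 0.73 (edgeR adjusted p = 0.203, and 0.0436 without osimertinib DTP + AZD5153 replicate 3). With AZD5153 the values were 5.41, 3.84 and 17 CPM. The distal region of NFKB1 (chr4:102620625-102621126, 27376 bp from a start) had 4.35, 10.5 and 5.53 CPM in DMSO, 7.17, 11.8 and 7.96 in osimertinib DTP cells and 14.4, 20.9 and 1.16 with AZD5153. Its log2 fold change with AZD5153 against DMSO was 0.85 ± 0.72 (edgeR adjusted p = 0.455) with all libraries and 1.37 (adjusted p = 0.0276) without replicate 3, the lowest of the 9.

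NFKB2 encodes p100, the precursor of p52, and had 11 regions, all with a log2 fold change above 0 in osimertinib DTP against DMSO and none called with all libraries (7 called without osimertinib DTP + AZD5153 replicate 3). The flank region (chr10:102402101-102402602) carried 3.36, 3.82 and 4.83 CPM in DMSO and 8.51, 19.3 and 10.2 in osimertinib DTP, with no overlap, and a log2 fold change of 1.66 ± 0.65 (edgeR adjusted p = 0.111, and 0.00964 without osimertinib DTP + AZD5153 replicate 3). With AZD5153 it had 1.8, 4.77 and 12.6 CPM, which overlapped both groups. The tallest promoter region (chr10:102399253-102399754) had 7.44, 13.3 and 9.15 CPM in DMSO, 7.46, 34 and 5.24 in osimertinib DTP cells and 10.3, 10.5 and 35.6 with AZD5153. These overlapped (log2 fold change 0.64 ± 0.71 in osimertinib DTP, edgeR adjusted p = 0.637).

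The distal region of NFKB2 at chr10:102384773-102385274, at −8836 bp from a start, had low levels of 1.72, 0.31 and 1.11 CPM in DMSO, 2.68, 3.76 and 4.23 in osimertinib DTP cells and 3.41, 8.49 and 4.83 with AZD5153. Every drug-treated library lay above every DMSO library. The log2 fold change was 1.74 ± 0.65 in osimertinib DTP (edgeR adjusted p = 0.0944, and 0.023 without osimertinib DTP + AZD5153 replicate 3) and 2.39 ± 0.66 with AZD5153 (adjusted p = 0.0193). The latter call was lost without DMSO replicate 2 (0.108) or 3 (0.0864), without osimertinib DTP + AZD5153 replicate 2 (0.0673), and without TMM scaling (0.0529).

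NFKBIA encodes IκBα, the inhibitor that NF-κB induces to end its own signal. Its 3 promoter regions and 13 distal regions gave no call in either comparison with all libraries. The tallest promoter region (chr14:35404265-35404766) overlaps only the end of the sequence above and does not reach its marked match. It had 22.4, 27 and 20.6 CPM in DMSO, 22.2, 63.2 and 21.9 in osimertinib DTP cells and 25.3, 29.1 and 62.6 with AZD5153. The log2 fold changes against DMSO were 0.61 ± 0.56 (edgeR adjusted p = 0.546) and 0.74 ± 0.56 (adjusted p = 0.393), the latter 0.22 without osimertinib DTP + AZD5153 replicate 3.

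The tallest distal region of NFKBIA (chr14:35365234-35365735, 37503 bp downstream of a start) had 19, 31.4 and 21 CPM in DMSO, 11.1, 27.4 and 10.7 in osimertinib DTP cells and 15.8, 17.8 and 29.8 with AZD5153, and the groups overlapped (log2 fold change −0.54 ± 0.55 in osimertinib DTP, edgeR adjusted p = 0.598). Its neighbour at chr14:35365901-35366402 was called in osimertinib DTP without osimertinib DTP + AZD5153 replicate 3 but not with all libraries. It was 1 of 2 NFKBIA regions called lower in that fit. That neighbour had 21.4, 29.4 and 22.2 CPM in DMSO, 7.36, 13.2 and 9.97 in osimertinib DTP cells and 8.62, 9.89 and 14.7 with AZD5153, and every drug-treated library lay below every DMSO library. Its log2 fold change in osimertinib DTP was −1.26 ± 0.52, with an edgeR adjusted p of 0.129 with all libraries and 0.0249 without that one. Upstream, chr14:35419742-35420243 had 3.72, 2.89 and 1.51 CPM in DMSO, 6.79, 10.3 and 7.35 in osimertinib DTP cells and 3.21, 4.89 and 1.35 with AZD5153, with a log2 fold change of 1.58 ± 0.59 in osimertinib DTP (edgeR adjusted p = 0.0933, and 0.0111 without that library).

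NFKBIZ encodes IκBζ, a nuclear member of the IκB family that regulates a subset of NF-κB target genes. Within the gene, the intronic region chr3:101842171-101842672 (−6842 bp from an internal start) had 1.72, 0.826 and 0.805 CPM in DMSO, 10.5, 9.18 and 8.36 in osimertinib DTP cells and 23.4, 21.9 and 3.29 with AZD5153. Every drug-treated library was above every DMSO library in scaled CPM. Before scaling, osimertinib DTP + AZD5153 replicate 3 held 17 counts, beside 19, 8 and 8 in DMSO. The log2 fold change was 3.04 ± 0.71 in osimertinib DTP (edgeR adjusted p = 0.0132) and 3.84 ± 0.72 with AZD5153 (adjusted p = 0.0029). The call in osimertinib DTP was lost without DMSO replicate 2 (adjusted p = 0.0979) or 3 (0.0892).

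The other intronic region of NFKBIZ, chr3:101837021-101837522, had 0.726, 1.14 and 1.31 CPM in DMSO, 5.64, 4.31 and 6.85 in osimertinib DTP cells and 14.5, 10.8 and 2.32 with AZD5153. In scaled CPM there was again no overlap with DMSO. Before scaling, osimertinib DTP + AZD5153 replicate 3 held 12 counts, beside 8, 11 and 13 in DMSO. The log2 fold change in osimertinib DTP was 2.40 ± 0.67 (edgeR adjusted p = 0.0295). With the replicate number as a block, the adjusted p was 0.0512, and the call was also lost on removal of any single DMSO or osimertinib DTP replicate (highest adjusted p = 0.13, without DMSO replicate 2). With AZD5153 the log2 fold change was 3.13 ± 0.68 (adjusted p = 0.00581), and this call held in all 9 fits that left out 1 library.

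Downstream of NFKBIZ, the intergenic region chr3:101868209-101868710 had 0.726, 0.826 and 0.905 CPM in DMSO, 2.68, 2.78 and 3.12 in osimertinib DTP cells and 7.31, 5.12 and 3.48 with AZD5153. In scaled CPM the 3 groups were separate and in rising order. Raw counts were 28, 20 and 31 in osimertinib DTP and 73, 44 and 18 with AZD5153, so the order of the drug groups rests on the scaling of replicate 3. Its log2 fold change was 1.79 ± 0.58 in osimertinib DTP (edgeR adjusted p = 0.0557, and 0.00915 without osimertinib DTP + AZD5153 replicate 3) and 2.69 ± 0.59 with AZD5153 (adjusted p = 0.00595). A region 33043 bp downstream of a start, chr3:101890243-101890744, had 1.18, 1.55 and 0.603 CPM in DMSO, 3.82, 5.71 and 4.43 in osimertinib DTP cells and 2.3, 3.26 and 0.58 with AZD5153. Its log2 fold change in osimertinib DTP was 2.05 ± 0.66 (edgeR adjusted p = 0.0535, and 0.0359 with the replicate block).

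The tallest promoter region of NFKBIZ (chr3:101849525-101850026) had 20.9, 28.7 and 20.1 CPM in DMSO, 28.8, 90.3 and 21.9 in osimertinib DTP cells and 22.4, 29 and 106 with AZD5153. Apart from the 1 high library in each drug group the values were close to DMSO, and the log2 fold changes were 1.01 ± 0.65 (edgeR adjusted p = 0.357) and 1.17 ± 0.65 (adjusted p = 0.23), the latter 0.14 without osimertinib DTP + AZD5153 replicate 3.

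TNFAIP3 encodes A20, a ubiquitin-editing enzyme that ends signalling from the TNF receptor. Upstream of the gene, chr6:137852049-137852550 (−14664 bp from a start, annotated as an intron but outside the RefSeq bounds of TNFAIP3) had 7.44, 16 and 10.4 CPM in DMSO, 1.24, 0.278 and 0.906 in osimertinib DTP cells and 1.5, 1.28 and 0 with AZD5153. All drug-treated libraries lay below all DMSO libraries. The log2 fold change was −3.74 ± 0.79 in osimertinib DTP (edgeR adjusted p = 0.00859) and −3.49 ± 0.78 with AZD5153 (adjusted p = 0.00685). The former call was lost without DMSO replicate 2 (0.0669) and without osimertinib DTP replicate 2 or 3, and the latter held in all 9 fits that left out 1 library.

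The second upstream region of TNFAIP3, chr6:137853855-137854356, had 3.54, 6.92 and 3.72 CPM in DMSO, 0.478, 0 and 0.504 in osimertinib DTP cells and 1.1, 0.349 and 0.387 with AZD5153, without overlap. Its log2 fold change was −3.72 ± 0.82 in osimertinib DTP (edgeR adjusted p = 0.0106) and −2.86 ± 0.78 with AZD5153 (adjusted p = 0.0186). Without DMSO replicate 2 the adjusted p was 0.0941 and 0.118, and without DMSO replicate 3 the call with AZD5153 was also lost. Both distal regions of TNFAIP3 lay between the 60.5 and 88.2 percentile of all regions in the DMSO libraries and between the 1.86 and 23.7 percentile in osimertinib DTP.

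At the tallest promoter region of TNFAIP3 (chr6:137867184-137867685), DMSO had 10.8, 16.4 and 10.9 CPM, osimertinib DTP 10.6, 41.6 and 7.96 and AZD5153-treated cells 11.8, 9.19 and 38.8. The groups overlapped (log2 fold change 0.66 ± 0.68 in osimertinib DTP, edgeR adjusted p = 0.61). The other promoter region of TNFAIP3, chr6:137866419-137866920, went in the direction of the distal regions but was not called. It had 7.44, 12.2 and 7.04 CPM in DMSO, 4.21, 8.21 and 3.93 in osimertinib DTP cells and 7.81, 6.28 and 6.18 with AZD5153, and both drug groups overlapped DMSO. The next counted regions upstream of the assigned ones, which the annotated table leaves out, were also lower in every drug-treated library than in every DMSO library, as the plot by distance shows.

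**Figure D2:**
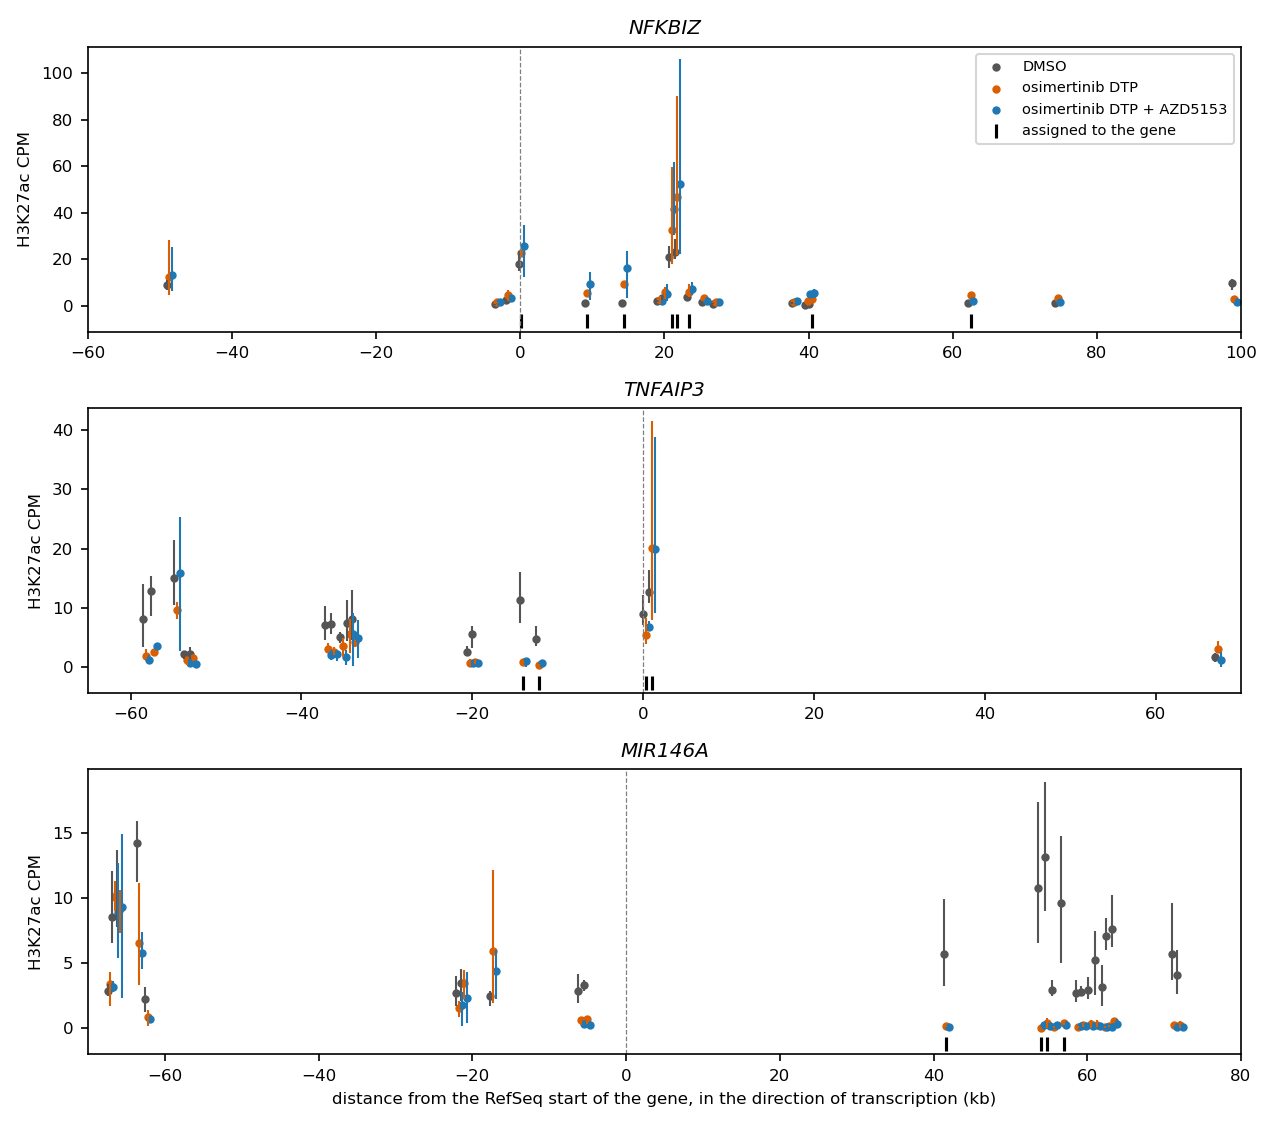
H3K27ac CPM of counted regions around NFKBIZ, TNFAIP3 and MIR146A against the distance in kb from the RefSeq start (dashed line), with points for the mean of 3 libraries and bars from the lowest to the highest library. Black ticks mark the regions assigned to the gene; around MIR146A the assigned regions lie 41 to 57 kb from the start and are near 0 CPM in both drug groups.

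TNIP1 encodes ABIN1, a ubiquitin-binding partner of A20, and was, with all libraries, the only member with called regions in both directions, all of them with AZD5153 against DMSO. The intronic region chr5:151076044-151076545 had 13, 27.8 and 22.5 CPM in DMSO, 8.89, 11.8 and 9.16 in osimertinib DTP cells and 4.81, 6.86 and 5.8 with AZD5153. The 3 groups were separate and in falling order, and the log2 fold change was −1.08 ± 0.52 in osimertinib DTP (edgeR adjusted p = 0.2) and −1.85 ± 0.54 with AZD5153 (adjusted p = 0.024). Its neighbour chr5:151076643-151077144 had 5.99, 9.6 and 11.4 CPM in DMSO, 3.06, 2.23 and 4.33 in osimertinib DTP cells and 0.601, 0.698 and 3.67 with AZD5153, with a log2 fold change of −2.52 ± 0.70 with AZD5153 (adjusted p = 0.0201). Both calls were lost without DMSO replicate 2 or 3 or osimertinib DTP + AZD5153 replicate 1, the second also without osimertinib DTP + AZD5153 replicate 2, with adjusted p reaching 0.128 and 0.0846.

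The flank region of TNIP1 at chr5:151094840-151095341 had 6.35, 8.67 and 8.35 CPM in DMSO, 5.16, 1.81 and 3.02 in osimertinib DTP cells and 2.4, 2.44 and 1.35 with AZD5153, where its log2 fold change was −1.89 ± 0.58 (edgeR adjusted p = 0.0307). In the opposite direction, the region chr5:151038348-151038849, 349 bp from an internal start, had 7.26, 7.13 and 7.74 CPM in DMSO, 9.75, 15.7 and 6.95 in osimertinib DTP cells and 20.4, 17.7 and 35.6 with AZD5153. It was higher in every AZD5153-treated library than in any other, with a log2 fold change of 1.73 ± 0.55 against DMSO (edgeR adjusted p = 0.0354). Both calls were lost on removal of any DMSO replicate or of osimertinib DTP + AZD5153 replicate 1, with adjusted p reaching 0.111 and 0.143. The flank call was also lost without osimertinib DTP + AZD5153 replicate 2 or osimertinib DTP replicate 3, and the promoter call without osimertinib DTP replicate 1. The tallest promoter region of TNIP1 (chr5:151080577-151081078) had 16.3, 26.1 and 18.1 CPM in DMSO, 23.2, 83.2 and 16.2 in osimertinib DTP cells and 28.6, 29.8 and 89.7 with AZD5153, and it was not called in either comparison with DMSO (log2 fold change 1.02 ± 0.64 in osimertinib DTP, edgeR adjusted p = 0.348, and 0.18 with AZD5153).

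BIRC3 encodes cIAP2, a ubiquitin ligase of TNF receptor complexes, and its 4 distal regions gave no call. The tallest (chr11:102313016-102313517, −3933 bp from a start) had 6.44, 10.3 and 8.85 CPM in DMSO, 7.07, 9.18 and 11.5 in osimertinib DTP cells and 14.1, 17.5 and 3.29 with AZD5153. The groups overlapped, and the log2 fold changes were 0.12 ± 0.59 (edgeR adjusted p = 0.937) and 0.45 ± 0.59 (adjusted p = 0.651), the latter 0.88 (adjusted p = 0.126) without osimertinib DTP + AZD5153 replicate 3.

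**Figure D3:**
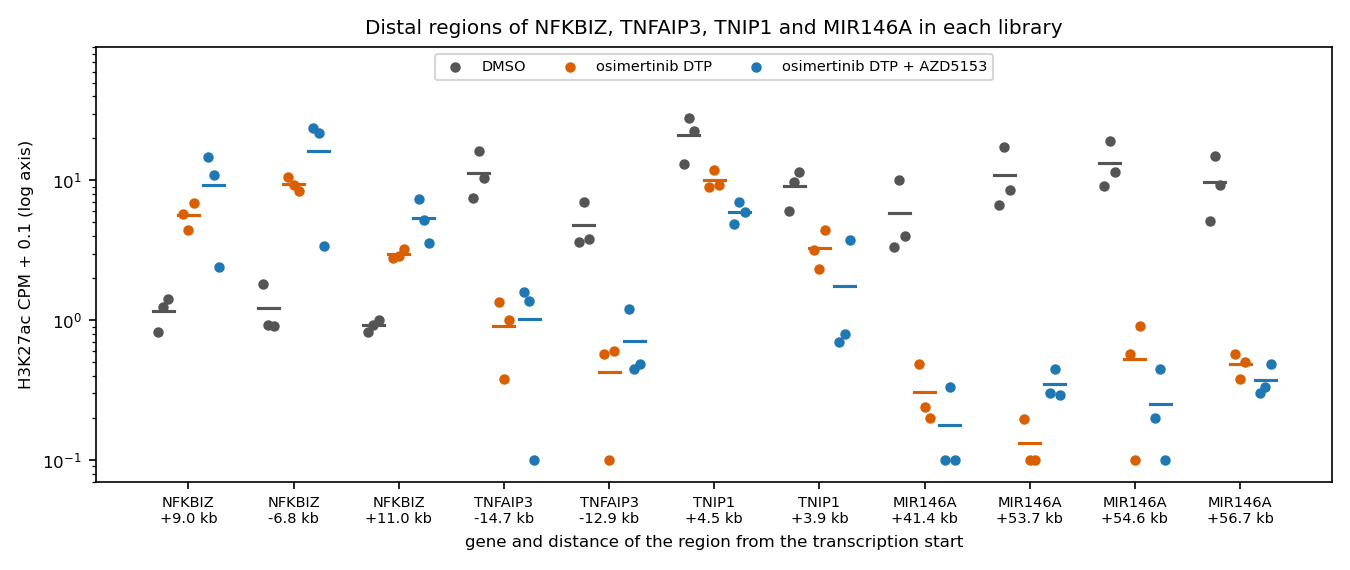
H3K27ac CPM + 0.1 on a log axis of 11 distal regions of NFKBIZ, TNFAIP3, TNIP1 and MIR146A, labelled by their distance from a start as the deposited annotation gives it, with 1 point per library and a bar at the group mean. In scaled CPM, the NFKBIZ regions shown are higher, and the TNFAIP3, TNIP1 and MIR146A regions shown lower, in every drug-treated library than in every DMSO library. Raw counts of the intronic NFKBIZ regions in osimertinib DTP + AZD5153 replicate 3 overlap those of DMSO. The other distal region of NFKBIZ (chr3:101890243-101890744) and that of TNIP1 (chr5:151059852-151060353), which overlapped DMSO with AZD5153, are not shown.

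MIR146A encodes a microRNA that NF-κB induces and that targets adaptors of the Toll-like receptor pathway. Its 4 regions lie 41 to 57 kb downstream of the hairpin. The region chr5:160539905-160540406 had 8.98, 18.9 and 11.5 CPM in DMSO, 0.478, 0 and 0.806 in osimertinib DTP cells and 0.1, 0.349 and 0 with AZD5153. The region chr5:160526784-160527285 had 3.26, 9.91 and 3.92 CPM in DMSO, 0.382, 0.139 and 0.101 in osimertinib DTP cells and 0, 0.233 and 0 with AZD5153. At chr5:160542023-160542524 the DMSO libraries had 4.99, 14.8 and 9.15 CPM, those of osimertinib DTP 0.478, 0.278 and 0.403 and those with AZD5153 0.2, 0.233 and 0.387. All 4 regions were lower in every drug-treated library than in every DMSO library. The fourth, chr5:160539099-160539600, had 6.53, 17.3 and 8.45 CPM in DMSO and at most 0.349 CPM in any drug-treated library.

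For the region with the highest mean, chr5:160539905-160540406, the summed counts were 396 in DMSO, 13 in osimertinib DTP and 4 with AZD5153. The 4 regions ranged from the 57.6 to the 90.6 percentile of all regions in the DMSO libraries, from the 0.169 to the 13.4 percentile in osimertinib DTP and from the 0.765 to the 16.3 percentile with AZD5153. The input held 5 to 8 counts at these regions, beside a median of 10 over all regions.

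The low values extended beyond the 4 assigned regions. A run of 16 consecutive counted regions, chr5:160479256-160557649 (78.4 kb), held 4 assigned to MIR146A, 3 to ATP10B and 9 that were not annotated. It was extended outward while every drug-treated library lay below every DMSO library in scaled CPM. The direction within it and its ends follow from that rule. DMSO libraries held 19 to 183 counts per region of the run, osimertinib DTP libraries 0 to 9, AZD5153-treated libraries 0 to 7 and the input 0 to 12. The next counted region before it (chr5:160467785-160468286) had DMSO counts of 31, 28 and 17, osimertinib DTP counts of 40, 87 and 19 and counts of 60, 19 and 25 with AZD5153. The next after it (chr5:160792487-160792988), which lies much farther from the run, had DMSO counts of 12, 39 and 27, osimertinib DTP counts of 10, 11 and 14 and counts of 3, 31 and 1 with AZD5153.

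Across the 9 libraries, the genes on other chromosomes whose regions correlated best with the MIR146A region of highest mean, among 14873 genes, were LINC00407 (Pearson r = 0.998), SDR9C7 (0.996), TMEM200A (0.994), MIR154 (0.994) and SUPT20HL2 (0.993), on log2 CPM. Among the regions of the other 9 genes, a TNFAIP3 distal region (0.940) and the TNIP1 flank region (0.931) were most like it, and an NFKBIZ distal region (−0.885) and the NFKB2 distal region (−0.842) most unlike it. These correlations are descriptions over 9 points that share library depth and 3 groups.

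Counts summed per gene and class gave 15 tested sums, on a CPM scale set by the summed table, which differs from the scale of single regions. The share of all 20438 sums called was 8.86% in osimertinib DTP against DMSO and 15.5% with AZD5153 against DMSO, in either direction. The distal sum of NFKBIZ was 7.2, 5.43 and 6.1 CPM in DMSO, 38.2, 19.7 and 41.9 in osimertinib DTP cells and 69.9, 56 and 10.1 with AZD5153. It rose by 2.41 ± 0.63 (log2, edgeR adjusted p = 0.0462, and 0.101 with the replicate block) and by 2.86 ± 0.64 (adjusted p = 0.0178). The distal sum of TNFAIP3 was 18.2, 28.7 and 23.7 CPM in DMSO, 2.9, 0.25 and 2.6 in osimertinib DTP cells and 3.83, 2.22 and 0.404 with AZD5153, with log2 fold changes of −3.64 ± 0.85 (edgeR adjusted p = 0.0319, and 0.0847 with the replicate block) and −3.41 ± 0.84 (adjusted p = 0.0251).

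The distal sum of TNIP1 was 34.5, 51.7 and 63.5 CPM in DMSO, 24.2, 14.7 and 29.7 in osimertinib DTP cells and 13.5, 14.3 and 18.2 with AZD5153. It fell by 1.70 on the log2 scale with AZD5153 (SE 0.36, edgeR adjusted p = 0.0139), and the value in osimertinib DTP was −1.13 ± 0.35 (adjusted p = 0.0786). These were the 2 and 3 sums called. The count in osimertinib DTP was 0 in each fit that left out a DMSO or an osimertinib DTP replicate, 1 without osimertinib DTP + AZD5153 replicate 1 or 2 and 4 without replicate 3 of that group. With AZD5153 it was 0 without DMSO replicate 2 or 3, 1 without DMSO replicate 1 or osimertinib DTP + AZD5153 replicate 1, and 5 without osimertinib DTP + AZD5153 replicate 3.

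No promoter sum passed the test. The promoter sum of NFKBIZ was 93.3, 103 and 101 CPM in DMSO, 126, 159 and 134 in osimertinib DTP cells and 143, 136 and 194 with AZD5153. Its log2 fold changes were 0.49 ± 0.24 (edgeR adjusted p = 0.262) and 0.67 ± 0.24 (adjusted p = 0.0959). The promoter sum of NFKBIA was 55.5, 50.7 and 55.4, then 62, 83.3 and 88.5, then 65.6, 64.6 and 93.4. For both genes every drug-treated library lay above every DMSO library. The promoter sum of TNFAIP3, which overlapped, was 30.2, 35.8 and 30.1, then 25, 44.7 and 21.9, then 28.8, 21.1 and 47.1. NFKB2 had a promoter sum of 71.3, 57.7 and 77.1 CPM in DMSO, 110, 140 and 139 in osimertinib DTP cells and 60.9, 63.8 and 179 with AZD5153. Osimertinib DTP and DMSO did not overlap there, and the log2 fold change was 0.92 ± 0.41 (edgeR adjusted p = 0.223, and 0.00992 without osimertinib DTP + AZD5153 replicate 3).

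**Figure D4:**
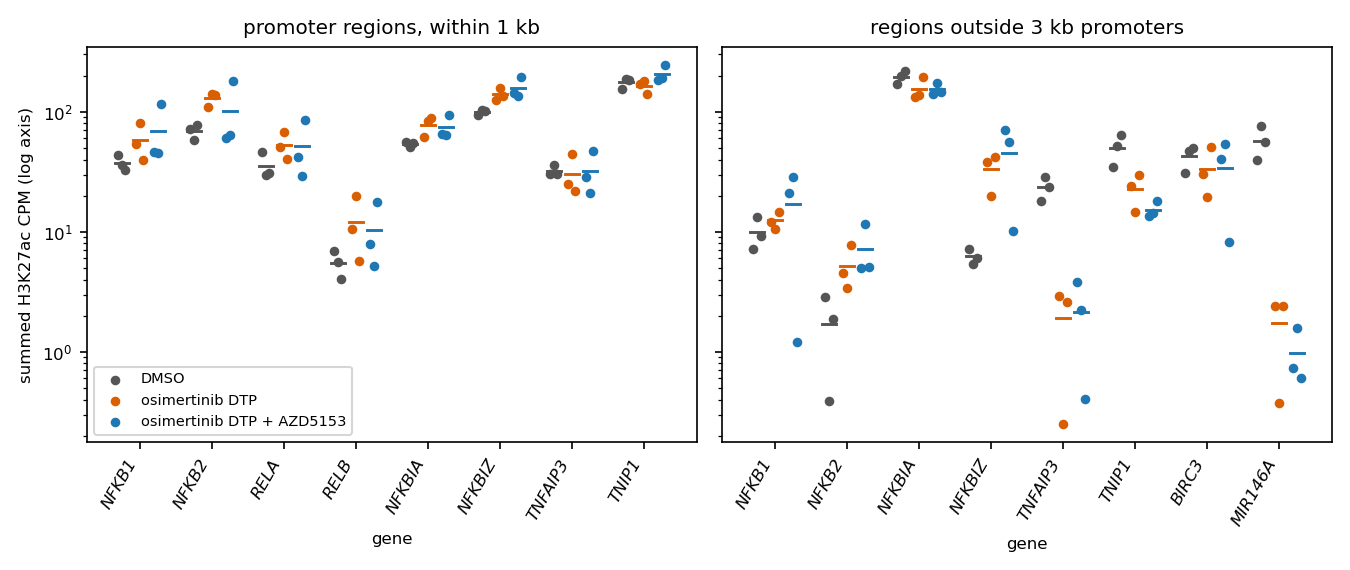
H3K27ac CPM summed over the promoter regions (left) and the distal regions (right) of each member gene, on a log axis, with 1 point per library and a bar at the mean of 3 libraries. Distal sums of NFKBIZ lie higher and those of TNFAIP3 and MIR146A lower in the drug groups. The promoter sums of NFKBIZ and TNFAIP3 lie closer together. Those of NFKBIZ and NFKBIA are higher in every drug-treated library than in every DMSO library, without being called, and those of TNFAIP3 overlap. MIR146A has no promoter region.

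Whether distal and promoter H3K27ac moved apart was tested with limma on the log2 ratio of the distal to the promoter sum in each library, for the 6 member genes with enough counts in both classes. Over all 5038 genes, 3.06% had a changed ratio in osimertinib DTP against DMSO and 9.49% with AZD5153 against DMSO. The median difference of the log2 ratio over all genes was −0.25 and −0.44 in these comparisons. No member was called in osimertinib DTP, where 4 had an unadjusted limma p under 0.05, beside 987 of all 5038 genes. TNFAIP3 gave −3.96 ± 1.26 there (limma adjusted p = 0.12) and NFKBIZ 1.85 ± 0.81 (adjusted p = 0.25). With AZD5153, the ratio of TNIP1 fell by 1.89 on the log2 scale (SE 0.42, limma adjusted p = 0.0253), and that of TNFAIP3 gave −3.75 ± 1.26 (adjusted p = 0.0913). The TNIP1 call was lost on removal of any DMSO replicate or of osimertinib DTP + AZD5153 replicate 1 or 2, with adjusted p reaching 0.134. Without osimertinib DTP + AZD5153 replicate 3, 3 ratios were called in each of these comparisons, beside 23.3% and 25.6% of all ratios, and without osimertinib DTP replicate 2, 2 were called with AZD5153.

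The deposited peaks, called per library, were set beside the counts (an overlap of at least 1 bp). A peak in at least 2 of 3 libraries lay at 60 of the 67 regions in DMSO, 54 in osimertinib DTP and 52 with AZD5153. These counts include 4, 0 and 0 MIR146A regions, which were selected on their low counts in drug-treated cells. Of the 28 other distal regions, 23, 21 and 22 had such a peak. The share over all regions is not given here. The 4 MIR146A regions and both distal TNFAIP3 regions had a peak in 3 of 3 DMSO libraries and in none of the drug-treated ones. The intronic NFKBIZ regions had none in DMSO, a peak in 3 of 3 osimertinib DTP libraries and in 2 of 3 with AZD5153, and the intergenic NFKBIZ region had a peak in 3 of 3 libraries with AZD5153 only. Of the 31 promoters, 29 in DMSO, 31 in osimertinib DTP and 28 with AZD5153 had a peak in at least 2 of 3 libraries.

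Osimertinib DTP + AZD5153 against osimertinib DTP gave no called member region, sum or ratio. Over all regions 0% were called, over all sums 0% and over all ratios 0% (edgeR and limma, adjusted p under 0.05). Of the 63 member regions, 2 had an unadjusted edgeR p under 0.05, beside 7013 of all 157919 regions. DESeq2 called none of the 63. The TNIP1 region chr5:151038348-151038849 had 9.75, 15.7 and 6.95 CPM in osimertinib DTP and 20.4, 17.7 and 35.6 with AZD5153, with a log2 fold change of 1.18 ± 0.54. The NFKBIZ region chr3:101868209-101868710 also had higher scaled CPM in all 3 AZD5153-treated libraries, with 0.90 ± 0.54. Its raw count in osimertinib DTP + AZD5153 replicate 3 (18) was below those of osimertinib DTP (28, 20 and 31). The NFKBIA upstream region chr14:35419742-35420243 had lower values in all 3 AZD5153-treated libraries, with −1.34 ± 0.59. So did the NFKB2 promoter region chr10:102395849-102396350, with −1.09 ± 0.54. It had 7.46, 11.3 and 9.16 CPM in osimertinib DTP and 2.50, 4.65 and 5.99 with AZD5153. Of the 11 NFKB2 regions, 7 lay below 0 with all libraries and 10 without osimertinib DTP + AZD5153 replicate 3, none of them called.

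Other genes of the pathway were read from lists of 70 genes, of which 58 had 305 regions. In osimertinib DTP against DMSO, 20 of these regions rose and 6 fell, with a median log2 fold change of 0.16 beside 0.15 over all regions tested, and with AZD5153 against DMSO 28 rose and 16 fell, with a median of 0.21 beside 0.23. Over all regions tested 5.58% rose and 5.13% fell in the first comparison and 9.05% and 9.01% in the second, so the lists were not called at a share far above these. The inducible target genes had 106 regions, of which 10 rose and 2 fell in osimertinib DTP; the kinase complexes had 57, with 6 and 2; the receptors and adaptors 81, with 1 and 2; the other negative regulators 35, with 3 and 0; and the other NF-κB and IκB family genes 26, with none. With AZD5153 against DMSO, the counts higher and lower were 14 and 5, 6 and 2, 4 and 7, 4 and 1, and 0 and 1. Between the drug groups no region of the lists was called (DESeq2 0). There 6 of the 305 had an unadjusted edgeR p under 0.05, beside 7013 of all 157919 regions. Against DMSO, the calls without osimertinib DTP + AZD5153 replicate 3 numbered 81 and 85, and without DMSO replicate 2 they numbered 4 and 14. Removal of any DMSO or osimertinib DTP replicate gave 4 to 14 calls in osimertinib DTP, and with AZD5153 the count was 27 without DMSO replicate 1, 13 without DMSO replicate 3 and 23 without osimertinib DTP + AZD5153 replicate 1.

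The 3 regions of the lists with the smallest adjusted p that rose in osimertinib DTP were distal regions of MAP3K8, the kinase TPL2 (log2 fold change 4.45 ± 0.63, edgeR adjusted p = 0.00273), MAP3K7, the kinase TAK1 (3.69 ± 0.65, adjusted p = 0.0041), and PTGS2, the cyclooxygenase COX-2 (4.46 ± 0.80, adjusted p = 0.00446). Those that fell belonged to TRAF3, a ubiquitin ligase that restrains the non-canonical pathway (−2.76 ± 0.57, adjusted p = 0.00791), the chemokine gene CCL20 (−2.36 ± 0.59, adjusted p = 0.0184) and TAB2, an adaptor of TAK1 (−1.96 ± 0.55, adjusted p = 0.0307). The TRAF3 region, chr14:102824918-102825419, had 9.89, 18.8 and 15.4 CPM in DMSO, 2.87, 2.09 and 1.51 in osimertinib DTP cells and 1.60, 1.63 and 2.90 with AZD5153. The drug-treated libraries all lay below the DMSO libraries there.

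With AZD5153 against DMSO, the rising regions were those of MAP3K8 (4.44 ± 0.63, edgeR adjusted p = 0.00114), PTGS2 (4.86 ± 0.80, adjusted p = 0.00168) and TANK, a TRAF-binding protein (4.57 ± 0.83, adjusted p = 0.00245). The falling ones were CCL20 (−3.18 ± 0.63, adjusted p = 0.00351), TRAF3 (−2.86 ± 0.58, adjusted p = 0.00412) and BCL2A1, an anti-apoptotic BCL2 relative (−3.0 ± 0.75, adjusted p = 0.0123).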

How the data were processed

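H3K27ac was measured in 9 H1975 libraries (3 groups of 3, from the labels) and 1 pooled input, sequenced as 75 nt single-end reads. The deposited tables hold raw read counts per 502-bp region, which the authors made from their reads; the submitters' processing notes name BWA 0.7.17, MACS2 2.2.6, featureCounts 2.0.0, ChIPseeker 1.29.1 and hg38, without role or order, and the filter behind the annotated table and the handling of duplicate reads are not given in the sources used here. Deposited peak lists, 1 per library, hold the MACS score, fold enrichment and −log10 p and q values of the authors' peak calls. The name of 1 peak list, of osimertinib DTP replicate 3, gives another cell line than its labels, which were followed. With duplicates removed a region could hold at most 1152 reads; members reached 649.

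All 169637 regions entered edgeR 4.0.16 (R 4.3.3; filterByExpr, TMM, robust quasi-likelihood fit over 9 libraries by group), adjusted by the Benjamini-Hochberg method over 157919 regions; all 67 member regions passed the filter. CPM of regions are TMM-scaled; marker CPM are scaled to the library total alone. Sums per gene and class were tested in the same way, and distal-to-promoter ratios with limma 3.58.1. DESeq2 1.42.0, other scalings, filters, a replicate block, quality weights and leaving out each library were alternatives, and centring the ratios per library was added after seeing the data. The tests were run on simulated counts first. The members and gene lists were chosen with earlier results of these data known. Text names every member by its tallest promoter and distal region, other called regions, every MIR146A region, the 3 smallest adjusted p of the pathway lists in each direction, and the 5 genes most like MIR146A; further regions were chosen after their values were seen. Replicate numbers paired DTP with DMSO (correlations of deviations 0.361, 0.356 and 0.334), from the numbers in the sample titles, but in the other comparisons not every pair passed 0.1. Sequences are from RefSeq GRCh38.p14.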

Additional observations from a re-analysis of the deposited data

How the results depend on the processing

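No called region, sum or ratio of a member gene changed direction under any alternative run. Of the single called values recomputed with 1 library removed, 115 stayed past the threshold and 65 did not; of those under other alternatives, 166 did and 26 did not. For the member regions in osimertinib DTP against DMSO, 4 were called, and the count was 1 at an adjusted p under 0.01, 8 with DESeq2, 18 with the compared libraries alone, 19 with library quality weights, 7 with annotated regions alone and 0 to 20 on leaving out 1 library. With AZD5153 against DMSO, 10 were called, and the count was 4 at an adjusted p under 0.01, 6 with the compared libraries alone, 23 with quality weights and 4 to 14 on leaving out 1 library. Between the drug groups quality weights gave 4 calls and every fit that left out 1 library gave 0. The share of all regions called also differed between fits. In osimertinib DTP it was 10.7% in the main fit, 17.7% with DESeq2 and 26.8% without osimertinib DTP + AZD5153 replicate 3. Shares for the compared libraries alone, quality weights and annotated regions alone are not given here. The counts of calls in this section are therefore not a result about the members. The sums in osimertinib DTP gave 2 calls, against 0 at an adjusted p under 0.01, 4 with the compared libraries alone, 0 with the replicate block, 10 with quality weights and 0 to 4 on leaving out 1 library. With AZD5153 they gave 3, against 0 at an adjusted p under 0.01, 5 with DESeq2, 1 with the replicate block, 6 with quality weights and 0 to 5 on leaving out 1 library. The ratios gave 0 calls in osimertinib DTP, against 2 when centred per library on the median of all genes (chosen after seeing the data), 2 with the compared libraries alone and 0 to 3 on leaving out 1 library. With AZD5153 they gave 1, against 0 at an adjusted p under 0.01, 0 with the replicate block, 4 when centred and 0 to 3 on leaving out 1 library.

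The pathway lists gave 26 calls in osimertinib DTP, against 10 at an adjusted p under 0.01, 50 with DESeq2, 71 with the compared libraries alone, 91 with quality weights and 4 to 81 on leaving out 1 library. With AZD5153 against DMSO they gave 44, against 14, 27 with the compared libraries alone, 124 with quality weights and 13 to 85 on leaving out 1 library, and between the drug groups quality weights gave 5. As for the members, these counts are given without the share of all regions called in the same fit and are not a result about the lists. The cause of the differences between fits was not tested. With AZD5153 against DMSO 2 of the 3 pairing correlations were over 0.1 (0.021, 0.551 and 0.347), so the condition that every pair pass it was not met; under the replicate block the adjusted p was 0.0596 for the NFKBIZ distal sum, 0.0652 for TNFAIP3 and 0.0651 for the TNIP1 ratio. Beside these and the values given with the results, the block lost no call of a named member value. The scaling moved all regions: with AZD5153 against DMSO the median log2 fold change was 0.23 with TMM, −0.02 without it and 0.30 with loess offsets, with 14286 higher and 14232 lower, 9564 and 15152, and 17279 and 11903 regions called. Calls with the compared libraries alone were lost for the NFKB2 distal region (adjusted p = 0.0514) and the TNIP1 regions chr5:151076044-151076545 (0.0546), chr5:151076643-151077144 (0.0566) and chr5:151094840-151095341 (0.0694). Over all regions DESeq2 called 12497 higher and 15406 lower in osimertinib DTP. Drug-treated libraries held 0 to 8 counts at the MIR146A regions, so levels near 0 there cannot be ranked at this depth.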
